A study of Homo sapiens with 6 samples.

Results

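Glycolysis splits glucose into pyruvate, glycogen metabolism stores and releases glucose units, and a further set of proteins decides whether pyruvate is turned into lactate or carried into mitochondria for oxidation. The transcripts of 41 genes of these routes were followed in LOX-IMVI cells depleted of IκBζ. The genes were taken by symbol from a list of the pathway, by a rule that used no measured value, though earlier results of these data were known when the list was chosen. They are 41 of the 47432 genes listed in each count table. LOX-IMVI is an established human melanoma line, and IκBζ, encoded by NFKBIZ, is a nuclear co-regulator of NF-κB and STAT target genes. The cells had received a lentiviral pLKO.1 control construct (shCtrl) or pLKO.1 with a short hairpin RNA against NFKBIZ (shNFKBIZ), and were selected with puromycin. The study also describes its control as an shRNA, so whether shCtrl carried a hairpin is not settled. RNA of 3 libraries per group was sequenced, which the study describes as independent experiments, and the P values measure the spread between these 6 libraries. Both groups were otherwise untreated, and depletion rested on a single hairpin, so effects of the hairpin itself and of the loss of IκBζ cannot be told apart.

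Glucose enters the cell through SLC2A transporters and is trapped by hexokinases. Phosphofructokinase commits it to glycolysis, and the enzymes from aldolase to pyruvate kinase recover ATP. Lactate dehydrogenase then regenerates NAD+, while pyruvate dehydrogenase, which is held inactive by pyruvate dehydrogenase kinases, opens the way to the citrate cycle. Melanoma cells, like many tumour cells, are known for converting much of their glucose to lactate even when oxygen is present. Several of these genes are known targets of hypoxia-inducible factors and of MYC.

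The libraries held 22264473 to 24624839 exon reads. Introns gave 7.16% to 7.46% of gene reads in shCtrl cells and 7.63% to 8.15% in shNFKBIZ cells. NFKBIZ itself had 1519, 1629 and 1674 exon reads in the shCtrl libraries and 474, 477 and 468 in the shNFKBIZ libraries, which is 3.43-fold lower (log2 fold change -1.78, SE 0.0581, adjusted P 7.2e-17). Of the melanocyte lineage markers, SOX10, MLANA and S100B had 0 reads, PMEL, TYR, DCT and TYRP1 had at most 11 reads, and MITF lay between 1.72 and 3.58 TPM, a level that divides reads by exon length and by depth. AXL, a marker of dedifferentiated melanoma, lay between 384 and 490 TPM, and VIM between 2861 and 3181 TPM, while NGFR, PTPRC, EPCAM and PECAM1 had at most 5 reads. COL1A1, a fibroblast collagen that melanoma cells can also express, lay between 7.67 and 32.3 TPM. Transcripts that define the melanocyte lineage were thus absent or low in both groups.

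Most of the pathway was lower after IκBζ depletion. Of the 41 genes, 40 had enough exon reads to be tested, and 32 of them (80.0%) fell and 5 (12.5%) rose at an adjusted P of at most 0.05. Among all 13843 genes tested, 32.8% fell and 32.5% rose by the same rule. The median log2 fold change of the 40 genes was -0.40, against 0.00 for all genes tested. The risers were PFKL, PFKFB2, PDK2, MPC1 and PYGB. SLC2A3, SLC16A1 and PDHA1 did not pass the test, and PDK4 was not tested.

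The summed share of the 41 genes in all exon reads was 2.18%, 2.26% and 2.14% in the shCtrl libraries. It was 1.62%, 1.62% and 1.60% in the shNFKBIZ libraries, so that each shNFKBIZ library lay under each shCtrl library. In CPM, reads scaled to the depth and composition of each library, 36 of the 40 tested genes did not overlap between the groups, which was also the case for 68.7% of all genes tested. Most changes were moderate. LDHA, ALDOC, ENO2 and PDK3 were at least 2-fold lower, which is 4 of 40 genes beside 5.12% of all genes. The rises stayed under 2-fold, a limit that 3.84% of all genes passed upward.

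**Figure D1:**
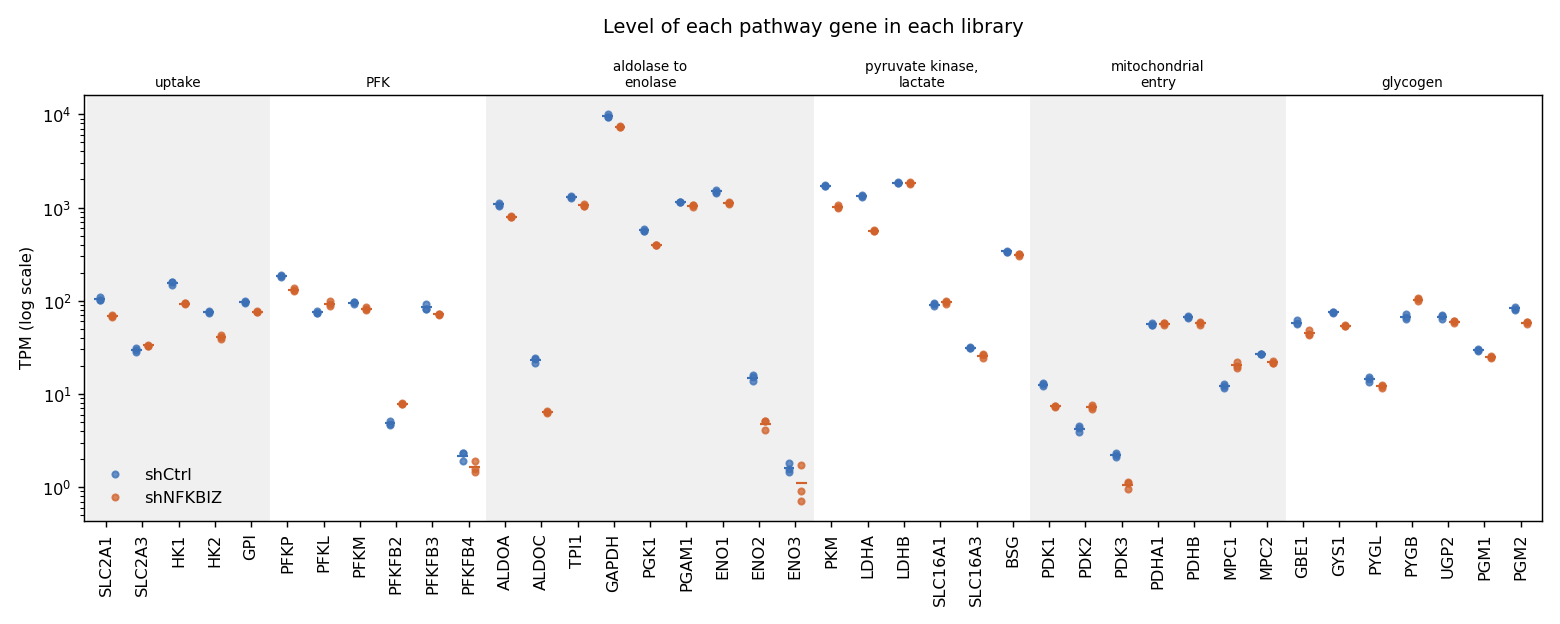
Level of the 40 detected pathway genes in TPM on a log scale, 1 point per library and a line at each group mean (n = 3 libraries per group), ordered along the pathway. GAPDH is the highest at 7263 to 10104 TPM, and the groups lie far apart for LDHA, ALDOC and ENO2, whereas those of LDHB, SLC16A1 and PDHA1 lie together.

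The members past 2-fold stood at different points of the route. On hg38 they are LDHA (ENSG00000134333) at chr11:18394560-18408425, ALDOC (ENSG00000109107) at chr17:28573115-28576948, ENO2 (ENSG00000111674) at chr12:6913745-6923698 and PDK3 (ENSG00000067992) at chrX:24465244-24550466, and reads were summed over all their exons. LDHA encodes the M subunit of lactate dehydrogenase, the form that favours the making of lactate from pyruvate. It had 1350, 1321 and 1312 TPM in the shCtrl libraries and 563, 556 and 575 TPM in the shNFKBIZ libraries. The fall was 2.49-fold (log2 fold change -1.32, SE 0.0353, adjusted P 2.8e-18), the groups were far apart, and the spread within each was small beside the difference. ALDOC, the brain-type aldolase, had 21.4, 24.3 and 23.6 TPM in shCtrl cells and 6.54, 6.46 and 6.18 TPM in shNFKBIZ cells. Its fall of 3.82-fold was the largest of the 40 genes (log2 fold change -1.93, SE 0.0953, adjusted P 9.2e-14). ENO2, the neuronal enolase, had 15.9, 15.2 and 13.6 TPM in shCtrl cells and 5.15, 4.10 and 5.07 TPM in shNFKBIZ cells. All 3 depleted libraries lay far below all 3 control libraries, and the fall was 3.31-fold (log2 fold change -1.73, SE 0.103, adjusted P 2.9e-12). PDK3, one of the kinases that switch off pyruvate dehydrogenase, was a low transcript with 2.20, 2.34 and 2.10 TPM in shCtrl cells and 0.949, 1.10 and 1.15 TPM in shNFKBIZ cells. The groups did not overlap, and the fall was 2.20-fold (log2 fold change -1.14, SE 0.106, adjusted P 4.1e-09). TPM are not adjusted for library composition and the fitted fold changes are, so the folds exceed the ratios of TPM slightly. Over the 18 other ways of scaling, filtering, counting and testing, the log2 fold change stayed between -1.34 and -1.23 for LDHA, -1.99 and -1.84 for ALDOC, -1.80 and -1.60 for ENO2, and -1.29 and -1.05 for PDK3.

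Some of these reads could belong to overlapping genes. ALDOC overlaps RSKR on the same strand, which had 228 to 404 exon reads and a log2 fold change of -0.44. ENO2 overlaps LRRC23, also on the same strand, which had 186 to 232 exon reads and a log2 fold change of 0.03 (adjusted P 0.80). How many reads these pairs share was not tested. LDHA and PDK3 had no overlapping gene with more than 6 reads. Of the 41 pathway genes, 31 overlap another gene, and for 16 an overlapping gene had at least 1% as many exon reads as the pathway gene.

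The promoters of these 4 genes are shown because the genes passed 2-fold, with 1 short sequence, ACGTG, marked. It occurs in each of the 4 windows shown and in 21.4% of 35116 RefSeq windows of the same length. ACGTG is a form of the core of the element that hypoxia-inducible factors bind. It also lies within CACGTG, the E-box that MYC and related factors bind. GCGTG, the other form of the hypoxia core, is not marked, though it occurs on either strand in the ALDOC, LDHA and PDK3 windows. The sequences cover 250 bases before to 50 bases after a RefSeq start site on GRCh38.p14, in the direction of transcription, and capitals mark each ACGTG or its reverse complement, or CACGTG where they join. They lie at chr17:28576846-28577145 on the minus strand for ALDOC, at chr12:6914330-6914629 on the plus strand for ENO2, at chr11:18394313-18394612 on the plus strand for LDHA and at chrX:24465036-24465335 on the plus strand for PDK3.
ALDOC: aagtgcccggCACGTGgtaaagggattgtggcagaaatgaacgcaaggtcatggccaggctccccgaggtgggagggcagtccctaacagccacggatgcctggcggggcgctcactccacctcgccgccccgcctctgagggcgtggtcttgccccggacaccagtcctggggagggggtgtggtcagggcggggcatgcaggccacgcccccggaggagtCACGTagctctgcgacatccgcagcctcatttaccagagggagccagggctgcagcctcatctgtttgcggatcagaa
ENO2: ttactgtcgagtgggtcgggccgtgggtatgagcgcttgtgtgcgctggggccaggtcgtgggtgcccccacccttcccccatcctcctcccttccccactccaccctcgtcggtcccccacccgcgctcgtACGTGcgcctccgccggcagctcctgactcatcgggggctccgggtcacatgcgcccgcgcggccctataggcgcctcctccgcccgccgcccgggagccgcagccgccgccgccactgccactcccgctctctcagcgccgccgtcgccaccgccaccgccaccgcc
LDHA: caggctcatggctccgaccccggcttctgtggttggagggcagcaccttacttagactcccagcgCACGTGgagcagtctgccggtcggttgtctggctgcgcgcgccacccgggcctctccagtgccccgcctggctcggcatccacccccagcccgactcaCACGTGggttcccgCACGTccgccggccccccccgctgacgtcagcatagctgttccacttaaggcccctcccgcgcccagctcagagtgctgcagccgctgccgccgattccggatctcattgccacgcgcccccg
PDK3: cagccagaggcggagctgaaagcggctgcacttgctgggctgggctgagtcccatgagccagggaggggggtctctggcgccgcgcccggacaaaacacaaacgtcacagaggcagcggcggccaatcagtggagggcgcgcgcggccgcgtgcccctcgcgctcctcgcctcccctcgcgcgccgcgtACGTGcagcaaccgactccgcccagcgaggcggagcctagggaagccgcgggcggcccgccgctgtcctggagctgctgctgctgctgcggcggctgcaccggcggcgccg
ALDOC held 2 marked stretches, LDHA held 3, and ENO2 and PDK3 held 1 each. The marked stretch nearest the start site lay 23 bases before it in ALDOC, 56 in PDK3, 68 in LDHA and 113 in ENO2. For LDHA this is 1 of 2 RefSeq windows, and the ENO2 start site used here is 835 bases from the start of the gene in the count tables.

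Windows were found for 38 of the 41 genes, 73 windows in all, and those of SLC2A3, PFKFB2 and SLC16A1 were not analysed here. ACGTG on either strand occurred in 26 of the 73 windows (35.6%, exact 95% interval 24.7% to 47.7%), against 21.4% of 35116 RefSeq windows of the same length. It was present in 25 of 65 windows of genes that fell and in 1 of 6 windows of genes that rose, while GCGTG, the other form of the hypoxia core, was present in 30 of 65 and in 4 of 6. GCGTG occurred in 47.9% of the members' windows (36.1% to 60.0%) and 36.5% of all windows, and the E-box CACGTG, which contains ACGTG, in 13.7% (6.77% to 23.8%) and 7.26%. The κB consensus, to which NF-κB dimers bind, occurred in 8.22% of the members' windows (3.08% to 17%) and 5.91% of all windows. The intervals treat the 73 windows of 38 genes as independent, so they are narrower than they should be. Only the interval of ACGTG left out the share of all windows, and no motif is called set apart on this ground. Windows of 1 gene overlap, so these shares are descriptions, and binding was not measured.

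**Figure D2:**
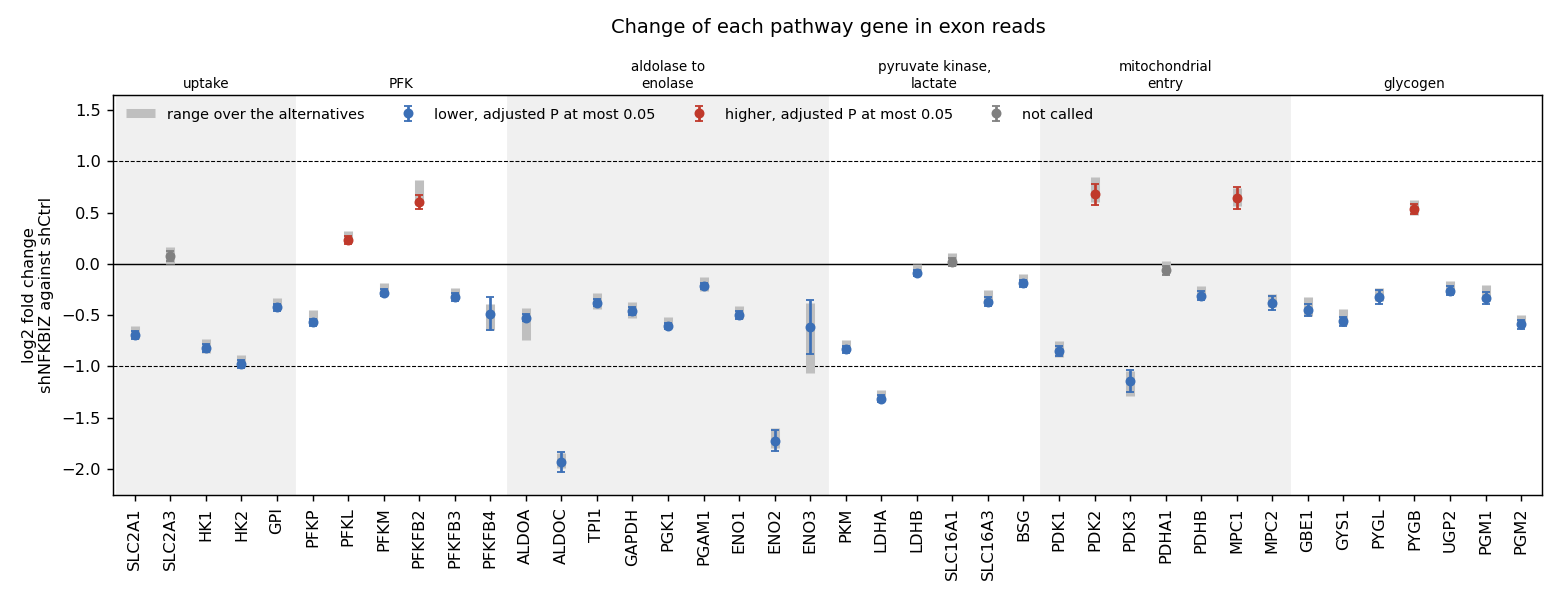
Log2 fold change of exon reads, shNFKBIZ against shCtrl, for the 40 tested genes ordered along the pathway, with bars of 1 SE (n = 3 libraries per group), grey bands for the range over the other ways of processing and dashed lines at 2-fold. ALDOC, ENO2, LDHA and PDK3 lie below the lower dashed line, and 5 genes (PFKL, PFKFB2, PDK2, MPC1 and PYGB) were called higher.

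At the entry of glucose, 4 of 5 genes fell (80.0%), beside 32.8% of all genes tested. The median log2 fold change over the 5 was -0.70. HK2, the inducible hexokinase common in tumours, had 74.2, 76.6 and 76.7 TPM in shCtrl cells and 41.3, 42.8 and 38.5 TPM in shNFKBIZ cells. HK1, the hexokinase of most tissues, had 159, 160 and 149 TPM in shCtrl cells and 94.6, 94.4 and 91.2 TPM in shNFKBIZ cells. Neither hexokinase overlapped between the groups. HK2 fell 1.97-fold (log2 fold change -0.97, SE 0.0417, adjusted P 7.9e-15) and HK1 fell 1.77-fold (-0.82, SE 0.0397, adjusted P 6.5e-14), and together they dropped from 232 ± 5.41 to 134 ± 4.02 TPM (SD, n = 3).

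The transporters differed from each other. SLC2A1, the widely expressed glucose transporter GLUT1, fell from 104 ± 3.81 to 68.3 ± 1.87 TPM (log2 fold change -0.70, SE 0.0397, adjusted P 1.2e-12). SLC2A3, the high-affinity transporter GLUT3, had 28.5, 31 and 29.5 TPM in shCtrl cells and 32.7, 33.7 and 33 TPM in shNFKBIZ cells. With a log2 fold change of 0.08 (SE 0.0482), SLC2A3 did not pass the test (adjusted P 0.18). The groups were apart in TPM and overlapped once counts were scaled for composition. SLC2A3 was called higher when scaled by library size alone (0.17, adjusted P 0.0048), after correction for GC content and length (0.11, adjusted P 0.026) and without shCtrl replicate 2 (0.12, adjusted P 0.048). Of its exon reads 84.4% were unique, and SLC2A14 is a near-identical copy of it, so its value is less certain. GPI, which isomerises glucose phosphate to fructose phosphate, fell from 96.6 ± 1.43 to 76.4 ± 1.41 TPM (log2 fold change -0.42, SE 0.0341, adjusted P 4.2e-10).

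At phosphofructokinase and the enzymes that set its activator, a fructose bisphosphate other than its product, 4 genes fell and 2 rose. These are 66.7% and 33.3% of only 6 genes, beside 32.8% and 32.5% of all genes tested. The 3 genes of phosphofructokinase subunits differed in direction. PFKP, the platelet-type subunit and the most abundant of them, had 183, 189 and 180 TPM in shCtrl cells and 132, 136 and 126 TPM in shNFKBIZ cells, a fall of 1.48-fold (log2 fold change -0.57, SE 0.0363, adjusted P 7.7e-12). PFKM, the muscle-type subunit, fell from 94.7 ± 2.88 to 82.5 ± 3.19 TPM (-0.28, SE 0.0363, adjusted P 6.0e-07). PFKL, the liver-type subunit, rose from 74.8 ± 2.30 to 93.1 ± 4.98 TPM (0.23, SE 0.0393, adjusted P 2.4e-05). The groups did not overlap for any of the 3 genes.

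The bifunctional PFKFB enzymes make and break that activator. PFKFB2, the heart-type enzyme, had 5.15, 4.68 and 4.77 TPM in shCtrl cells and 7.90, 7.81 and 7.80 TPM in shNFKBIZ cells. Each depleted library was above each control library, and the rise was 1.52-fold (log2 fold change 0.60, SE 0.0705, adjusted P 1.4e-07). PFKFB2 overlaps YOD1 on the opposite strand, which had 927 to 1021 exon reads and a log2 fold change of 0.01. PFKFB3, the inducible enzyme whose kinase activity prevails, fell from 84.7 ± 5.60 to 71.7 ± 0.977 TPM (-0.32, SE 0.0396, adjusted P 3.2e-07). PFKFB4 fell from 2.18 ± 0.253 to 1.64 ± 0.236 TPM (-0.49, SE 0.159, adjusted P 0.011). The PFKFB4 call rested on 52 to 89 reads per library and was lost with DESeq2 (adjusted P 0.061), with junction-spanning reads (0.19) and without shCtrl replicate 1 (0.053).

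From aldolase to enolase, 9 of 9 genes fell, beside 32.8% of all genes tested, with a median log2 fold change of -0.52. GAPDH, the dehydrogenase that yields NADH and the most abundant transcript of the pathway, had 9317, 10104 and 9372 TPM in shCtrl cells and 7507, 7353 and 7263 TPM in shNFKBIZ cells. The groups did not overlap, and GAPDH, which is often used as a reference gene, was 1.38-fold lower (log2 fold change -0.46, SE 0.0391, adjusted P 1.1e-09). PGK1, the first enzyme of the route that makes ATP, fell from 570 ± 21.9 to 396 ± 2.66 TPM (-0.60, SE 0.0323, adjusted P 3.8e-13). ENO1, the ubiquitous enolase, fell from 1491 ± 55.3 to 1118 ± 23 TPM (-0.50, SE 0.0368, adjusted P 9.5e-11).

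The remaining abundant enzymes of this stretch also fell. ALDOA, the main aldolase, fell from 1081 ± 40.6 to 796 ± 11.7 TPM (log2 fold change -0.52, SE 0.0372, adjusted P 5.1e-11). TPI1, which interconverts the triose phosphates, fell from 1305 ± 28.2 to 1064 ± 28.4 TPM (-0.38, SE 0.0338, adjusted P 2.3e-09). PGAM1, the mutase before enolase, fell from 1154 ± 4.98 to 1051 ± 24.1 TPM (-0.22, SE 0.0329, adjusted P 5.7e-06). Of the ALDOA reads 3.24% were unique, and a gene with 73 to 117 reads of its own overlaps ALDOA on the same strand. Of the PGAM1 reads 73.4% were unique. The minor forms ALDOC and ENO2 fell by more than ALDOA and ENO1, as given above. ENO3, the muscle enolase, had 18 to 50 reads per library, overlapped between the groups and passed the test narrowly (-0.62, SE 0.266, adjusted P 0.048). That call was lost under 8 of the 18 other ways of processing, with adjusted P up to 0.23, and ENO3 lies opposite PFN1, which had 23222 to 28571 reads.

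At pyruvate kinase and lactate, 5 of 6 genes fell (83.3%), beside 32.8% of all genes tested. PKM, which makes pyruvate and ATP, fell 1.78-fold, from 1712 ± 16.8 to 1017 ± 33.2 TPM (log2 fold change -0.83, SE 0.0332, adjusted P 2.2e-15). Its 2 splice forms, which differ in regulation, share 1 row of counts and were not separated here. LDHA fell from 1328 ± 19.6 to 565 ± 9.40 TPM. LDHB, the H subunit of lactate dehydrogenase, had 1858, 1835 and 1838 TPM in shCtrl cells and 1796, 1851 and 1858 TPM in shNFKBIZ cells. The TPM of LDHB overlapped between the groups, whereas its CPM, scaled for composition, did not. Its fall of 1.06-fold (log2 fold change -0.09, SE 0.0326, adjusted P 0.022) passed the test with that scaling. With library size alone the log2 fold change was 0.00 (adjusted P 0.98). The LDHB call was also lost with junction-spanning reads (adjusted P 0.26) and without shCtrl replicate 1, shNFKBIZ replicate 1 or shNFKBIZ replicate 2 (0.082, 0.11 and 0.053).

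The exporters of lactate differed. SLC16A1, the monocarboxylate transporter MCT1, had 91.2, 86.9 and 94.0 TPM in shCtrl cells and 97.0, 93.3 and 100.1 TPM in shNFKBIZ cells. The groups overlapped, and the test was not passed (log2 fold change 0.01, SE 0.0400, adjusted P 0.77). Its sign turned under 4 of the other ways of processing, and with library size alone it was called higher (0.10, adjusted P 0.024). SLC16A3, the transporter MCT4 that exports lactate from strongly glycolytic cells, fell from 31.4 ± 0.614 to 25.7 ± 1.38 TPM (-0.37, SE 0.0435, adjusted P 1.7e-07). BSG, the chaperone that brings both transporters to the membrane, fell from 338 ± 6.48 to 313 ± 7.36 TPM (-0.19, SE 0.0333, adjusted P 3.5e-05). SLC16A3 overlaps CSNK1D on the opposite strand, which had 2936 to 3519 exon reads and a log2 fold change of 0.08.

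At the entry of pyruvate into mitochondria, 4 of 7 tested genes fell and 2 rose. These are 57.1% and 28.6% of few genes, beside 32.8% and 32.5% of all genes tested. The kinases that inactivate pyruvate dehydrogenase moved in opposite directions. PDK1, the most abundant of them in shCtrl cells and a known hypoxia target, fell from 12.6 ± 0.446 to 7.38 ± 0.188 TPM (log2 fold change -0.85, SE 0.0506, adjusted P 2.2e-12), beside the 2.20-fold fall of PDK3. PDK2, a form found in most tissues, rose from 4.24 ± 0.327 to 7.19 ± 0.335 TPM (0.68, SE 0.0998, adjusted P 3.9e-06), the largest rise among the 40 genes. PDK4, the form induced by fasting, had 0 exon reads in all 6 libraries, which allows up to 3 reads per library by counting error.

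The enzyme complex and its supply differed less. PDHB, the beta subunit of the first enzyme of the pyruvate dehydrogenase complex, had 68.3, 65.2 and 67.3 TPM in shCtrl cells and 54.5, 58.9 and 58.2 TPM in shNFKBIZ cells. It fell without overlap between the groups (log2 fold change -0.31, SE 0.0424, adjusted P 1.4e-06). PDHA1, the alpha subunit that the kinases phosphorylate, had 57.2, 55.5 and 55.0 TPM in shCtrl cells and 54.7, 58.2 and 57.2 TPM in shNFKBIZ cells. The groups overlapped, and PDHA1 did not pass the test (log2 fold change -0.06, SE 0.0428, adjusted P 0.20; with library size alone 0.03). MPC1 and MPC2 form the carrier that brings pyruvate through the inner mitochondrial membrane. MPC1 rose from 12.3 ± 0.612 to 20.2 ± 1.64 TPM (0.64, SE 0.109, adjusted P 2.3e-05), and MPC2 fell from 26.9 ± 0.251 to 21.9 ± 0.748 TPM (-0.38, SE 0.0685, adjusted P 4.7e-05). MPC2 overlaps DCAF6 on the opposite strand, which fell by 1.05 on the log2 scale, and the part of those reads in the MPC2 value was not tested.

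In glycogen metabolism, 6 of 7 genes fell (85.7%) and 1 rose (14.3%), beside 32.8% and 32.5% of all genes tested. The riser was PYGB, the brain-type glycogen phosphorylase that releases glucose phosphate from glycogen. It had 66.4, 71.6 and 63.0 TPM in shCtrl cells and 106, 105 and 98.4 TPM in shNFKBIZ cells. The groups did not overlap, and the rise was 1.45-fold (log2 fold change 0.54, SE 0.0504, adjusted P 3.2e-08). PYGB overlaps ABHD12 on the opposite strand, which had 552 to 679 exon reads and a log2 fold change of -0.07. PYGL, the liver-type phosphorylase, fell from 14.4 ± 0.779 to 12.2 ± 0.463 TPM (-0.32, SE 0.0711, adjusted P 0.00041).

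The genes on the side of synthesis fell. GYS1, the glycogen synthase of muscle and most tissues, fell from 75.2 ± 0.713 to 54.0 ± 0.701 TPM (log2 fold change -0.56, SE 0.0415, adjusted P 9.8e-11). GBE1, the branching enzyme, fell from 58.3 ± 3.06 to 45.2 ± 3.01 TPM (-0.45, SE 0.0577, adjusted P 2.3e-06), and UGP2, which makes UDP-glucose, fell from 67.7 ± 3.54 to 59.7 ± 1.48 TPM (-0.26, SE 0.0428, adjusted P 1.5e-05). The phosphoglucomutases link glycogen with glycolysis. PGM2, which acts mainly on pentose phosphates, had 82.1, 79.8 and 86.1 TPM in shCtrl cells and 58.7, 58.9 and 56.7 TPM in shNFKBIZ cells (-0.59, SE 0.0423, adjusted P 5.7e-11). The PGM2 groups were well apart. PGM1, the main phosphoglucomutase, fell from 29.6 ± 0.740 to 24.9 ± 0.686 TPM (-0.33, SE 0.0572, adjusted P 2.6e-05). PGM1 overlaps ITGB3BP on the opposite strand, which had 433 to 619 exon reads and a log2 fold change of 0.34, and how many reads they share was not tested.

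Members of a family changed unequally. The share of each gene in the summed TPM of its family was taken in each library, for 13 families with 31 genes. MPC1 with MPC2, and PDHA1 with PDHB, are different subunits of the same complex. Their shares are therefore ratios of subunits and not of alternative forms. In each of the 13 families at least 1 share did not overlap between the groups, and only the shares of PFKM, PFKFB4, ENO3 and PDK4 overlapped. Lack of overlap was common, since 68.7% of all single genes tested did not overlap in CPM either. These shares are descriptions, and no test was made of them.

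The largest shifts were in lactate dehydrogenase and in the pyruvate dehydrogenase kinases. LDHA made up 42.1%, 41.9% and 41.7% of lactate dehydrogenase TPM in shCtrl cells and 23.9%, 23.1% and 23.6% in shNFKBIZ cells. The total of the family went from 3171 ± 31.6 to 2400 ± 37.5 TPM, nearly all of it through LDHA. Of the LDHB reads 25.6% were unique, and a gene with 3 to 6 reads overlaps LDHB on the same strand. With unique reads alone the share of LDHA was 73.1% in shCtrl and 53.6% in shNFKBIZ cells, so the level of the share depended on the counting and its fall did not. PDK2 made up 22.9%, 23.3% and 20.5% of pyruvate dehydrogenase kinase TPM in shCtrl cells and 48.1%, 45.5% and 44.3% in shNFKBIZ cells. PDK2 and PDK1 (47.2% ± 1.28) were thus about level in shNFKBIZ cells, whereas PDK1 held 66.2% ± 2.03 in shCtrl cells.

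**Figure D3:**
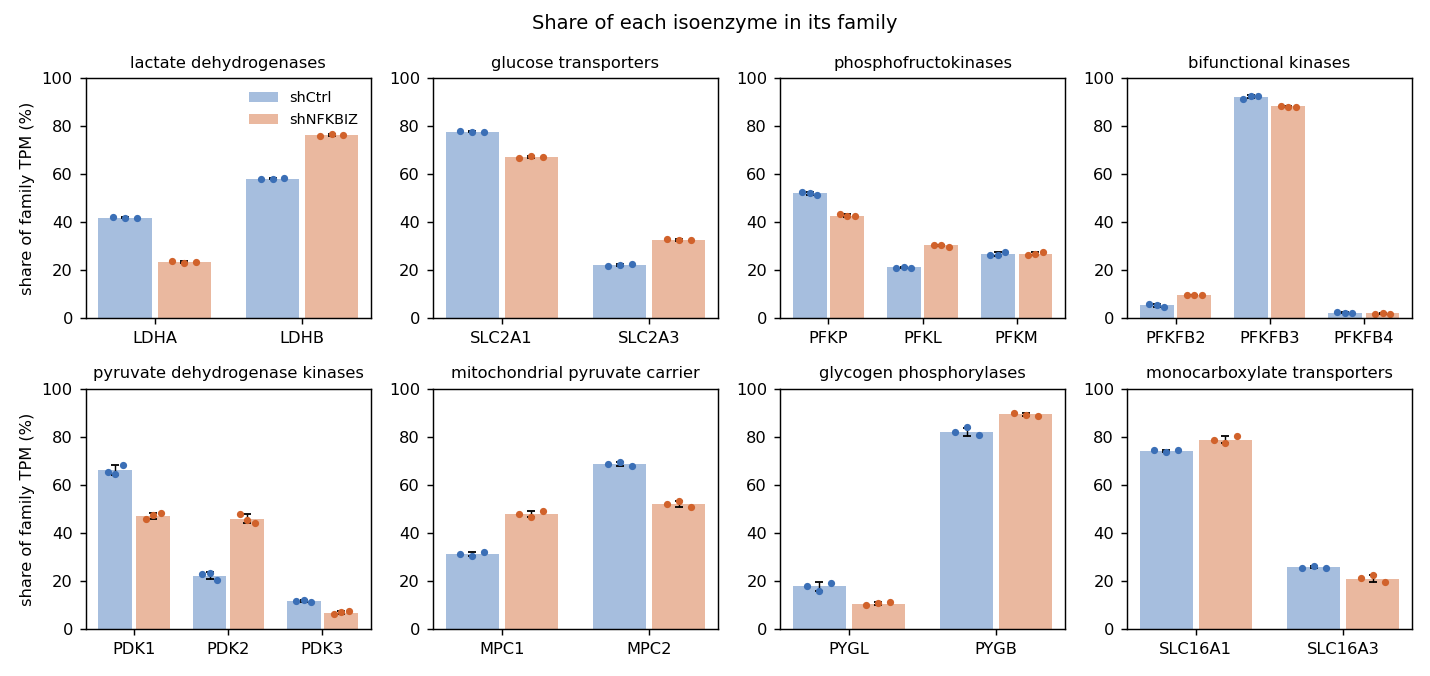
Share of each gene in the summed TPM of its family in percent, for 8 families, as bars of the group mean with SD and 1 point per library (n = 3 libraries per group). LDHA goes from 41.9% to 23.5%, PDK2 from 22.2% to 46.0% and MPC1 from 31.3% to 48.0%, while PFKM is at 26.8% and 26.9%.

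Other families shifted by less. MPC1 went from 31.3% ± 0.879 to 48.0% ± 1.23 of the summed TPM of both pyruvate carrier subunits, as MPC1 rose and MPC2 fell. That sum was 39.2 ± 0.857 TPM in shCtrl and 42.1 ± 2.37 TPM in shNFKBIZ cells, and it is not a level of the carrier. SLC2A3 went from 22.1% ± 0.353 to 32.7% ± 0.301 of the TPM of both glucose transporters. PFKL went from 21.2% ± 0.206 to 30.3% ± 0.408 of phosphofructokinase TPM, and PFKP from 52.0% ± 0.621 to 42.8% ± 0.488. PYGB, already the main phosphorylase at 82.3% ± 1.72, reached 89.4% ± 0.620, and the sum of both phosphorylases went from 81.4 ± 3.60 to 115 ± 3.94 TPM. PFKFB2 went from 5.32% ± 0.454 to 9.65% ± 0.140 of the bifunctional enzymes. ENO2 went from 0.989% to 0.425% of the enolases. ALDOC went from 2.09% to 0.797% of the aldolases, and with unique reads alone, of which ALDOA had few, from 38.3% to 21.4%. HK2 moved from 32.7% ± 1.12 to 30.4% ± 0.771, so both hexokinases fell nearly alike.

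Intron reads, which come mostly from unspliced RNA, gave a second readout of the same libraries. Of 37 members with enough intron reads, 11 (29.7%) were lower and 6 (16.2%) higher, beside 19.5% and 19.3% of all 12119 genes tested on introns, and 12 were higher with library size alone. The median log2 fold change of the 37 was -0.14 in intron reads, against 0.01 for all genes tested on introns. SLC2A3, HK1, PFKFB3, PFKFB4, ENO1, ENO2, PKM, LDHA, SLC16A3, PDK1 and UGP2 were lower. PFKM, PGK1, LDHB, MPC1, GBE1 and PYGB were higher. Thus 10 genes were lower in both exon and intron reads, and PFKM, PGK1, LDHB and GBE1 were lower in exon reads and higher in intron reads, the call of LDHB in exon reads being the one that was lost with library size alone. Reads were counted without use of strand, and PFKM overlaps SENP1 on the opposite strand. SENP1 had 1129 to 1386 exon reads and a log2 fold change of 0.22, and its part in the PFKM intron reads was not tested.

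The difference between the exon and the intron change was tested within the libraries. It differed for 13 of the 37 members. In 12 (32.4%) the exon change lay below the intron change, beside 16.5% of all 11025 genes tested, and in SLC2A3 alone it lay above, as in 12.4% of all genes. HK2 had 121, 129 and 111 intron reads in shCtrl and 165, 160 and 138 in shNFKBIZ cells, so its intron reads were not lower in any depleted library. The intron log2 fold change of HK2 was 0.27 (SE 0.111, adjusted P 0.051), and its exon change lay below that by the widest margin of the 12, a difference of -1.24 (SE 0.112, adjusted P 5.1e-17). PGK1 had 185, 225 and 250 intron reads in shCtrl and 347, 362 and 334 in shNFKBIZ cells, a rise of 0.57 (SE 0.0887) on the log2 scale, and its exon change lay 1.18 below that. The PGK1 row overlaps ATP7A on the same strand, which had 307 to 449 exon reads and a log2 fold change of -0.42. The part of ATP7A transcripts in the PGK1 intron reads was not tested, so the PGK1 difference is less certain. The other 10 genes were GPI, PFKP, PFKM, TPI1, GAPDH, PKM, LDHB, BSG, GBE1 and GYS1.

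LDHA behaved differently from HK2 and PGK1. It had 144, 134 and 154 intron reads in shCtrl and 53, 65 and 56 in shNFKBIZ cells. The intron log2 fold change of -1.40 (SE 0.132) was close to that of the exons, and the difference of 0.09 (SE 0.134, adjusted P 0.68) did not pass the test. PDK1 had an intron log2 fold change of -1.12 (SE 0.196) and MPC1 one of 0.83 (SE 0.169), each in the direction of its exon change. SLC2A3 had 46, 48 and 42 intron reads in shCtrl and 12, 14 and 25 in shNFKBIZ cells. Its introns fell by 1.50 (SE 0.241) on the log2 scale while its exon reads did not pass the test, a difference of 1.58 (SE 0.233). ALDOC, PDHB, MPC2 and PDK4 had too few intron reads, and those of ENO2 (1 to 22 per library) and PDK3 (3 to 14) were scarce.

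**Figure D4:**
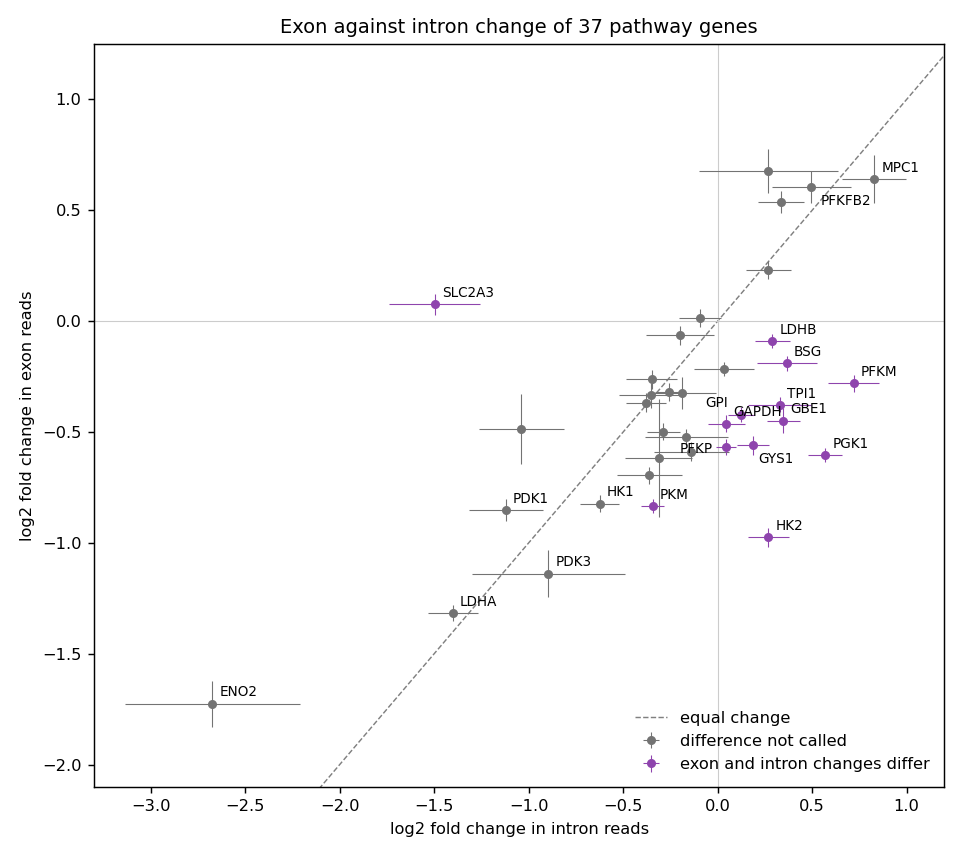
Log2 fold change of exon reads against that of intron reads for 37 pathway genes, shNFKBIZ against shCtrl, with bars of 1 SE (n = 3 libraries per group) and a dashed line of equal change. LDHA lies near the line at -1.40 in intron and -1.32 in exon reads, and 12 of the 13 genes with a difference, HK2 and PGK1 the farthest, lie below it and SLC2A3 above it.

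A wider list of 81 genes of the same and adjoining routes was read in the same way. Of these, 47 were tested, and 20 (42.6%) fell and 11 (23.4%) rose, nearer to the 32.8% and 32.5% of all genes than the shares of the 40 tested members were. The median log2 fold change of the 47 was -0.10. The genes past 2-fold were SLC2A6, EPAS1, PDP1, PGD, TIGAR and PCK2, which fell, and EPM2A and TXNIP, which rose. TXNIP, a glucose-responsive arrestin that lowers glucose uptake, rose from 39.7 ± 5.64 to 144 ± 5.76 TPM (log2 fold change 1.77, SE 0.0890, adjusted P 8.3e-07). SLC2A6, the transporter GLUT6, fell from 8.91 ± 0.831 to 1.68 ± 0.0886 TPM (-2.49, SE 0.140, adjusted P 9.1e-13).

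Beside the kinases described above, PDP1, the phosphatase that reactivates pyruvate dehydrogenase, fell from 39.6 ± 1.49 to 15.4 ± 0.782 TPM (log2 fold change -1.44, SE 0.0538). PGD, a dehydrogenase of the pentose phosphate pathway, fell from 117 ± 2.46 to 54.7 ± 3.30 TPM (-1.18, SE 0.0457). In that pathway 3 of 7 genes fell and 3 rose (42.9% each), beside 32.8% and 32.5% of all genes tested. TIGAR, a phosphatase that lowers the activator of phosphofructokinase, fell by 1.12 on the log2 scale, with 14.8% of its reads unique. PCK2, the mitochondrial enzyme that makes phosphoenolpyruvate, had a log2 fold change of -1.07, and EPM2A, the glycogen phosphatase laforin, rose by 1.04 from a low level of 0.396 ± 0.0638 TPM. Of the 6 regulators tested, 5 fell (83.3%), beside 32.8% of all genes tested. EPAS1, a hypoxia-inducible factor subunit, fell from 19.9 ± 2.09 to 7.64 ± 0.484 TPM (-1.46, SE 0.0903). HIF1A (-0.97, SE 0.0438), its partner ARNT (-0.88, SE 0.0532), MYC (-0.51, SE 0.0339) and MLXIP (-0.28, SE 0.0414) also fell and are named after their values were seen. The part of these transcripts in the members' changes was not tested.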

How the data were processed

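Total RNA of 3 shCtrl and 3 shNFKBIZ libraries was sequenced, and the titles of the samples gave the groups and replicate numbers. No sequencing provider is given, as the sources differ on it. Reads were mapped by the authors against hg38 in CLC Genomics Workbench, without use of strand, and the authors deposited the fragments per gene as whole-number counts (exon, intron, unique and junction-spanning reads). Fragments were not counted by molecular identifiers, so limits from 0 reads cover counting error only. GENCODE release 44 held 99.97% of the gene identifiers, 99.6% with identical coordinates. TPM were computed anew, from exon length and total exon reads.

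Total exon reads were tested with edgeR 4.0.16 in R 4.3.3 (filterByExpr, TMM factors, robust glmQLFit, glmQLFTest, group as the only term), two-sided, and P values were adjusted over all 13843 tested genes (Benjamini-Hochberg). Adjusted P values in the text come from this test unless another read class, setting or tool is named. An adjusted P of up to 0.05 made a call, and 2-fold was a second limit. Intron reads were fitted likewise, and exon and intron changes were compared as an interaction, each library being a block. The fit was tested on simulated data: for shNFKBIZ against shCtrl with 13695 genes, 87 of 100 changes of 2-fold and 72.9% of 96 changes of 0.5 (log2) were called, as were 18 of 13499 unchanged genes. For intron reads (11921 genes) 79.2% and 52% of such changes were called, and for the difference between exon and intron (10860 genes) 78.6% and 47.4%. Few genes were changed in these simulations, whereas 32.8% of all genes tested on exon reads fell and 32.5% rose in the data. The simulated recovery and false calls therefore do not carry over directly to the calls made here.

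The members and lists were chosen with earlier results of these data known. Values in every library are given for members past 2-fold, for the most changed and the most abundant of each of 6 steps, and for those not called or not tested. Other pathway genes are named past 2-fold at a mean of at least 50 reads. Alternatives were DESeq2 1.42.0, the likelihood ratio test, RLE factors, scaling by library size alone, no filter on low counts, a filter of 10 counts in each library, unique reads, total gene reads, leaving the 10 most abundant genes out, correcting for a trend with GC content and length, a replicate block, leaving out each library, and stricter limits. Junction-spanning reads were added after seeing the data. Promoter sequences are from RefSeq on GRCh38.p14.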

Additional observations from a re-analysis of the deposited data

How the results depend on the processing

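Of 719 refitted values of single pathway genes under 18 settings, 694 kept direction and side of the threshold, 15 were no longer called, 4 were newly called and 6 changed sign, and 34 genes kept both throughout. The number of pathway genes called lower ranged from 28 to 32 and that called higher from 3 to 7. With an added limit of 4 TPM on the difference, 3 pathway genes and 7 genes of the wider list were higher, since low transcripts (PDK2 and PFKFB2 among the pathway genes) were dropped. With library size alone, 12 pathway genes were higher in intron reads, LDHB had a log2 fold change of 0.000944 and PDHA1 one of 0.0269, and the median of all genes was 0.0937. SLC16A1, which ranged from -0.0184 to 0.0532 when 1 library was left out, changed sign without shCtrl replicate 2 (-0.00866), without shNFKBIZ replicate 3 (-0.0184), with total gene reads (-0.000405) and with junction-spanning reads (-0.0135). With unique reads the shares were 19.2% in shCtrl and 29.2% in shNFKBIZ cells for SLC2A3, 21.4% in shCtrl cells for PFKL, 38.3% and 21.4% for ALDOC, and 26.9% and 46.4% for LDHB. The shares of ALDOC and LDHB moved because few reads of ALDOA and LDHB are unique, and the cause of the others was not tested.

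Same-numbered replicates of the groups did not deviate together (correlations 0.0207, 0.0561 and 0.0288). Whether they were prepared side by side is not given. With a replicate block 32 pathway genes were lower, 5 higher and 4 lower past 2-fold, and NFKBIZ had a log2 fold change of -1.78. A replicate block and the correction for GC content and length were not run for the difference between exon and intron changes, in which libraries are already blocks. Low counts limit what can be said of ENO3, PFKFB4 and PDK3.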
